A study of Saccharomyces cerevisiae with 24 samples.

Results

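ADE2, TRP1, LEU2, HIS3, URA3 and CAN1 are the marker genes whose mutant alleles define the W303 laboratory strain of the budding yeast Saccharomyces cerevisiae. Their open reading frames (ORFs) were followed in the annotation of the W303 genome that accompanies a ChIP-seq study of Uls1 and Top2. Uls1 is a Snf2-family remodelling enzyme, Top2 is topoisomerase II, and acriflavine (ACF) is a Top2 poison. The members were selected by name from 5630 gene features, and each of the 6 names had exactly 1 feature. They were chosen with annotated lengths and size notes of several of them already known, so the split into shortened and unchanged ORFs is a description and not a finding.

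The study itself holds 24 libraries in 12 groups of 2. FLAG-Uls1 was precipitated from WT cells given 100 µM ACF and from WT cells without ACF, each with an input group. HA-tagged Top2 was precipitated from uls1Δ and from WT cells, given 250 µM ACF or none, again each with an input group. The cultures were grown in YPD and the ACF exposure was 2 h. According to the design, 4 independent ChIP replicates were pooled into the 2 sequencing replicates of a group. No read, peak or depth of any library was analysed here, and the values below are positions in the annotation, without replicates and without error.

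Several features of the strains bear on these genes. According to the study's strain list all of them are W303 derivatives that carry mutant ade2, trp1, leu2, his3, ura3 and can1 alleles and a functional RAD5. The uls1Δ strain used for Top2 carries uls1::URA3. The FLAG-Uls1 strain was made in a uls1::URA3 background and its tagged gene is linked to TRP1. The Top2 strains carry an HA-tagged TOP2 copy beside the untagged one. The annotation holds 1 feature for URA3 and 1 for TRP1, at the native loci, so an introduced marker copy has no feature of its own. Reads of the native and the introduced copy cannot be told apart by their annotated position. The sources used here do not give the genotype of the isolate that was assembled.

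An auxotrophic marker is a biosynthetic gene whose loss makes growth depend on an added nutrient, so that an intact copy on a plasmid or cassette can be selected. ADE2 acts in purine synthesis, TRP1, LEU2 and HIS3 in the synthesis of tryptophan, leucine and histidine, and URA3 in pyrimidine synthesis. CAN1 is different in kind. It encodes the arginine permease of the plasma membrane, and its loss gives resistance to the toxic arginine analogue canavanine and not a nutrient requirement, so that the word auxotrophic does not describe it. As background, the ade2-1, trp1-1 and can1-100 alleles are known as nonsense mutations and the leu2 allele of W303 as a frameshift allele. The annotation gives no allele, only the ends of each ORF.

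The W303 ORFs were shorter than those of S288C, the reference strain, for 3 members and of equal length for the other 3. Over the whole annotation, 5.32% of ORFs matched by systematic name (297 of 5584) were shorter than the gene span of S288C. Of these 297, 172 have several coding parts in S288C, so that the span holds introns or other breaks, and they are 66.9% of the 257 genes of that kind. Among genes with 1 coding part, as all 6 members are, 125 of 5327 (2.35%) were shorter. Over all gene features, 9.31% carried the note of a size different from S288C. The members were chosen with this contrast known, and nothing is read from their count against these shares. ADE2 was annotated at 1218 bp in W303, against 1716 bp in S288C. TRP1 was annotated at 150 bp in W303, against 675 bp in S288C. LEU2 was annotated at 258 bp in W303, against 1095 bp in S288C. All 3 carried the size note "different". HIS3 at 663 bp, URA3 at 804 bp and CAN1 at 1773 bp had the same length in both strains and carried the note "same". Each W303 length was a multiple of 3. The 3 shortened ORFs lacked 1860 of their 3486 S288C bases, or 53.4%.

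**Figure D1:**
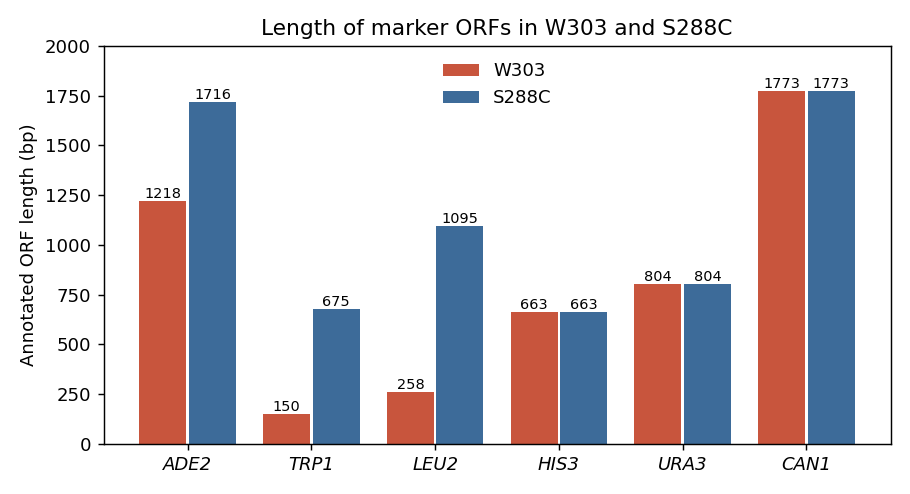
Annotated ORF length in bp of the 6 markers, with W303 (red) left of S288C (blue) for each gene. ADE2, TRP1 and LEU2 are shorter in W303, at 1218, 150 and 258 bp, and the bars of HIS3, URA3 and CAN1 are equal.

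ADE2 encodes phosphoribosylaminoimidazole carboxylase, and cells without it accumulate a red pigment when adenine is scarce. ADE2 (YOR128C) was annotated at chromosome 15 positions 564901 to 566118 of W303, minus strand. It kept 71.0% of the S288C length, or 406 codons in W303 against 572 in S288C, the stop codon included. By the gaps on both sides, the 498 missing bases were at the start. On the 3′ side, the gap to RGA1, a GTPase-activating protein for Cdc42, was 281 bp in W303 and 282 bp in S288C. On the 5′ side, the gap to AFI1, a gene of cell polarity, was 1204 bp in W303, against 685 bp in S288C. A gap here counts the bases strictly between 2 features, and the 5′ side is that of the start codon.

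The W303 length can be counted back from the end of the S288C stop codon. For ADE2 this led to base 499 of the S288C ORF, which is the first base of an in-frame ATG, codon 167. It is the third of 16 in-frame ATG codons in the ORF, which make up 2.8% of its codons, after those at codons 1 and 17. The S288C sequence around it is shown because by length the W303 feature begins at this ATG. It lies at chr15:565661-565723 of the R64 build, minus strand, bases 469 to 531 of the ORF, with the ATG in capitals:
ADE2: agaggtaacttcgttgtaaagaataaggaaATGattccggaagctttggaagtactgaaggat
The W303 sequence itself was not read here. An ORF is called from an ATG, so with the stop end kept such a match is largely set in advance. The ATG share of codons is no chance rate for it.

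TRP1 encodes phosphoribosylanthranilate isomerase of tryptophan synthesis and is a classical centromere-linked marker. TRP1 (YDR007W) was annotated at chromosome 4 positions 461756 to 461905 of W303, plus strand. It kept 22.2% of the S288C length, or 50 codons in W303 against 225 in S288C, and was the shortest feature among the members. The 525 missing bases were again at the start. The 3′ gap to GAL3, the galactose sensor of the GAL pathway, was 917 bp in both strains. The 5′ gap to SOK1, known as a high-copy suppressor of lost protein kinase A activity, was 1119 bp in W303, against 594 bp in S288C. SOK1 and TRP1 are divergent, so the widened gap lies between 2 start codons.

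For TRP1 the count back from the stop codon also led to an in-frame ATG, at base 526, codon 176. TRP1 of S288C has 2 in-frame ATG codons in all (0.889% of its codons), so by length the start of the W303 feature corresponds to the only one besides the S288C start codon. As for ADE2, a match to an ATG is largely set in advance by the kept stop end. The S288C sequence that corresponds to the whole W303 feature is short enough to show, with the 30 bases before it. It lies at chr4:462337-462516 of R64, plus strand, bases 496 to 675 of the ORF, with the ATG in capitals and the stop codon at the end:
TRP1: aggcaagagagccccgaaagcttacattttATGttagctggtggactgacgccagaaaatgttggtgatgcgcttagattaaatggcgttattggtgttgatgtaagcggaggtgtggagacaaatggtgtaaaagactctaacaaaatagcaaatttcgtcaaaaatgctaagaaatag

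LEU2 encodes β-isopropylmalate dehydrogenase of leucine synthesis. LEU2 (YCL018W) was annotated at chromosome 3 positions 91415 to 91672 of W303, plus strand. It kept 23.6% of the S288C length, or 86 codons in W303 against 365 in S288C. Here the 837 missing bases were at the other end of the ORF. The 5′ gap to a leucine tRNA gene was 351 bp in both strains. The 3′ gap to NFS1, the cysteine desulfurase of iron-sulfur cluster assembly, was 1197 bp in W303, against 358 bp in S288C. NFS1 is read towards LEU2, so the widened gap lies between 2 stop codons.

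Counting the LEU2 length back from the S288C stop led to codon 280, a gca triplet, and not to one of the 7 in-frame ATG codons. Counted from the S288C start codon, the W303 length ended in frame on agt, which is no stop codon. The triplet 1 base earlier, bases 255 to 257, read TAG, out of frame with the S288C start. The stop triplet before it in this shifted frame was at bases 240 to 242, which leaves 12 bases between them. The shifted frame holds 34 stop triplets over the S288C ORF, 9 of them up to the TAG shown, so stop triplets are frequent in this frame. The sequence is shown because the kept part of LEU2 is contained in it. It lies at chr3:91324-91610 of R64, plus strand, bases 1 to 287 of the ORF, with the TAG in capitals:
LEU2: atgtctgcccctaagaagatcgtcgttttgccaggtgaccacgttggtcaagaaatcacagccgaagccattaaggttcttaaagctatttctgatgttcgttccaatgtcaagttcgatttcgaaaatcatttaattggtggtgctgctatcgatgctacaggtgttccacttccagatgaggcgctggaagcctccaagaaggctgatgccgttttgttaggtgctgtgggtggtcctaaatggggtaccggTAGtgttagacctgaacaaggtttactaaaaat
Which bases differ in W303 was not tested, since only the S288C sequence was read.

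The shortened ORFs thus fell into those that kept the stop end (ADE2 and TRP1) and the one that kept the start end (LEU2). No neighbour took up the missing bases. Between SOK1 and GAL3, on either side of TRP1, the distance was 2186 bp in both strains. With the 3′ gap also equal, the 5′ gap of TRP1 was necessarily wider by the 525 ORF bases missing. Between NFS1 and YCL021W-A, the nearest ORF upstream of LEU2, the distance was 8781 bp in W303 and 8779 bp in S288C. The LEU2 gap was wider by 839 bp, 2 bp more than the 837 bases missing. For ADE2 the 5′ gap was wider by 519 bp, 21 bp more than the 498 bases missing, and the AFI1 ORF was itself 21 bp shorter, with 2661 bp in W303 and 2682 bp in S288C. Between ORT1, the next ORF upstream with the same length in both strains, and RGA1, the distance was 5735 bp in W303 and 5735 bp in S288C.

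**Figure D2:**
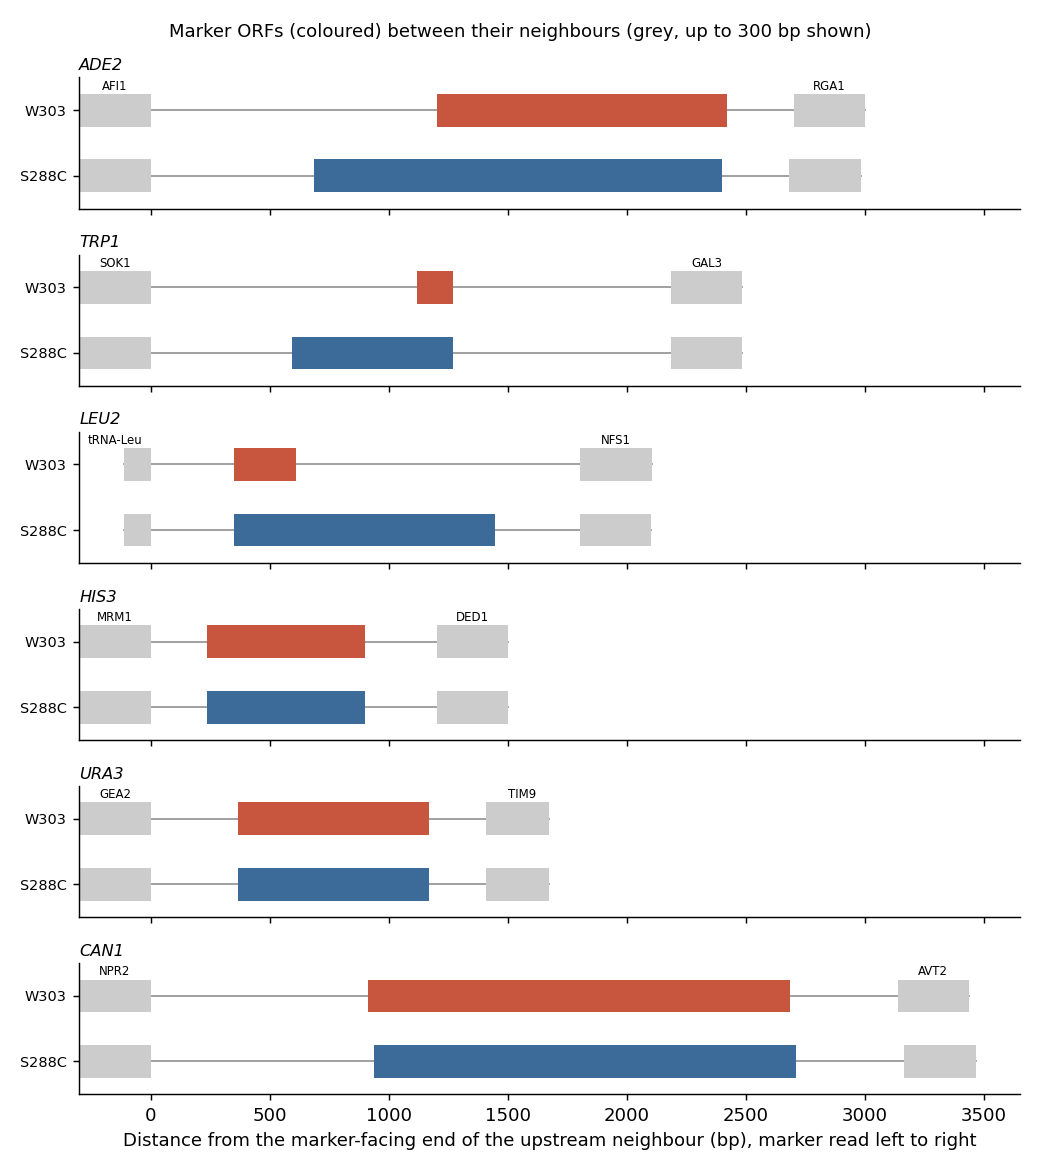
Each marker ORF (W303 red, above S288C blue) drawn to scale between its neighbours (grey, up to 300 bp shown), in bp from the marker-facing end of the upstream neighbour with the marker read left to right. ADE2 and TRP1 lose their left part in W303 and LEU2 its right part, while neighbours of TRP1 and LEU2 stay within 2 bp of their S288C distance.

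The markers of unchanged length had nearly unchanged surroundings. HIS3 encodes imidazoleglycerol-phosphate dehydratase of histidine synthesis. HIS3 (YOR202W) was annotated at chromosome 15 positions 722701 to 723363 of W303, plus strand. Its 5′ gap to MRM1, a methyltransferase of mitochondrial ribosomal RNA, was 237 bp and its 3′ gap to DED1, an RNA helicase of translation initiation, was 302 bp, both equal in W303 and S288C. HIS3 and MRM1 are divergent, and the 237 bp between their starts was the smallest gap beside any member.

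URA3 encodes orotidine-5′-phosphate decarboxylase, the enzyme that makes 5-fluoroorotic acid toxic to cells and so allows selection against the gene. URA3 (YEL021W) was annotated at chromosome 5 positions 117169 to 117972 of W303, plus strand. It stood in a tandem row with GEA2, an exchange factor for Arf GTPases, and TIM9, a chaperone of mitochondrial import. The 5′ gap to GEA2 was 365 bp in W303 and 366 bp in S288C, and the 3′ gap to TIM9 was 240 bp in both.

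CAN1 (YEL063C) was annotated at chromosome 5 positions 32058 to 33830 of W303, minus strand, with 591 codons in both strains. Its 3′ gap to AVT2, of a vacuolar transporter family, was 454 bp in both. Its 5′ gap to NPR2, a subunit of the SEACIT complex that regulates TORC1, was 912 bp in W303 and 940 bp in S288C. NPR2 was 1875 bp in W303, 27 bp more than its 1848 bp in S288C. Between AVT2 and PRB1, the next ORF upstream of the same length in both strains, the distance was 8805 bp in W303 and 8806 bp in S288C. CAN1 therefore stands in the annotation at full length, although the strain list names a can1 allele known as a nonsense mutation. How the length and this allele go together was not tested. The strain list names mutant his3 and ura3 alleles as well, and HIS3 and URA3 also stand at full length. How their lengths and alleles go together was not tested either. Single-base differences that leave the ends of an ORF in place cannot be seen in the annotation, and the equal lengths of HIS3, URA3 and CAN1 do not show that these genes are intact.

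Of the 12 gaps beside the members, 6 were equal in both strains, 2 differed by 1 bp, 1 was narrower by 28 bp and 3 were wider by over 500 bp. The 3 wide ones were those of ADE2, TRP1 and LEU2 on the shortened side. Among 4561 pairs of neighbouring ORFs of unchanged length, 4062 (89.1%) had the same gap in both strains, 94.3% were within 1 bp, and 33 (0.724%) differed by over 500 bp. Gaps beside an ORF of changed length are left out of these pairs. The last share is therefore no background for the 3 wide gaps, which come with the shortening of the ORFs. The median gap between neighbouring W303 ORFs was 388.5 bp. Of 5582 such gaps, 10.9% were wider than that from ADE2 to AFI1, 11.9% wider than that from TRP1 to SOK1 and 11.0% wider than that from LEU2 to NFS1.

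**Figure D3:**
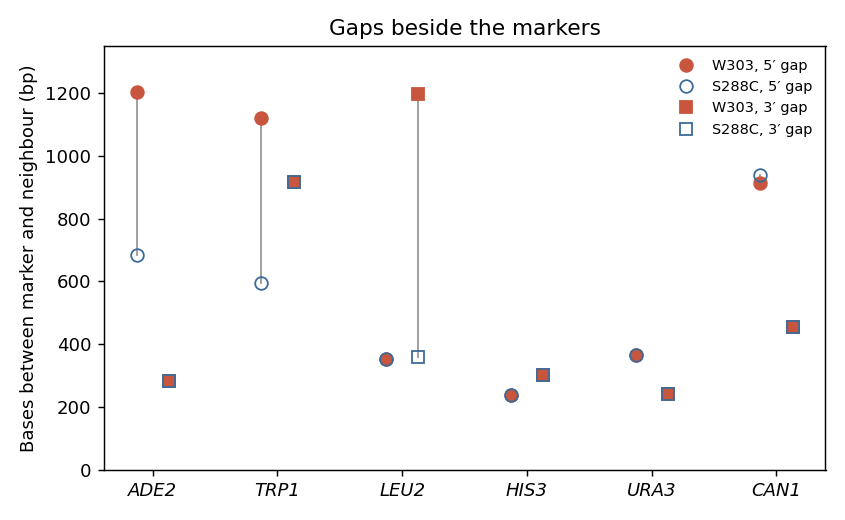
Bases between each marker and its neighbour, in bp, on the 5′ side (circles) and the 3′ side (squares), with W303 filled and S288C open and a line joining both values. The 5′ gaps of ADE2 and TRP1 and the 3′ gap of LEU2 lie at 1204, 1119 and 1197 bp in W303, far above their S288C values, and the other 9 pairs nearly coincide.

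The ORF bases left without a feature formed a large part of the widened gaps. They were 41.4% of the gap between ADE2 and AFI1, 46.9% of that between TRP1 and SOK1 and 69.9% of that between LEU2 and NFS1. If each of these bases is given to the nearest annotated edge, all 498 of ADE2 and all 525 of TRP1 go to the marker itself, as bases upstream of its annotated start. For LEU2, 598 go to the marker as downstream bases, 238 go to NFS1 and 1 is equally far from both. In the window of 500 bp upstream of the annotated W303 start, 498 bases at ADE2, 500 at TRP1 and 0 at LEU2 belong to the missing ORF part. A position counted against these features would thus read as upstream of ADE2 or TRP1 where the S288C annotation has the ORF. Whether this affects any peak of the study was not tested.

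At TRP1 and LEU2 the shortened side faces the centromere, and the distance to it was longer in W303 by as much as the gap had widened, 525 bp and 839 bp. TRP1 lay 12545 bp from CEN4 in W303 and 12020 bp in S288C, with its shortened start on the centromere side. LEU2 lay 22805 bp from CEN3 in W303 and 21966 bp in S288C, with its shortened stop end on that side. URA3 lay 35017 bp from CEN5 in W303 and 35016 bp in S288C. CAN1, on the same chromosome, was 119159 bp from CEN5 in W303 and 118520 bp in S288C, and was the member nearest to a chromosome end, at 32057 bp in W303 and 31693 bp in S288C. The members of chromosome 15 were the most distant from a centromere. ADE2 was 237923 bp from CEN15 in W303 and 237773 bp in S288C, and HIS3 was 395723 bp from it in W303 and 395243 bp in S288C.

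Replication origins, where DNA synthesis begins, carry an AT-rich consensus. The W303 annotation marks origins only as exact matches to 8 words of 11 bases named in its header: ATTTATATTTA, TTTTATATTTA, ATTTATGTTTA, TTTTATGTTTA, ATTTATATTTT, TTTTATATTTT, ATTTATGTTTT and TTTTATGTTTT. ARS1, an origin used in early yeast plasmids together with TRP1, begins 50 bp downstream of the TRP1 stop in S288C. No such feature lay between TRP1 and GAL3 in W303, although this gap was 917 bp in both strains. The nearest was 15129 bp from TRP1 in W303, and the nearest word on the plus strand of S288C was also 15129 bp away. On the minus strand of S288C a word lay 79 bp from TRP1, inside ARS1. The S288C plus strand around it, chr4:462587-462615 of R64, shows it as the reverse complement TAAACATAAAA in capitals:
ARS1: taaaagatcTAAACATAAAAtctgtaaaa

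For HIS3, URA3 and CAN1, W303 features and S288C words of the plus strand lay at distances within 2 bp of each other. The distance to the nearest one was 7189 bp in both for HIS3, 5638 bp in W303 and 5640 bp in S288C for URA3, and 15624 bp in W303 and 15625 bp in S288C for CAN1. It was 51405 bp in W303 and 51356 bp in S288C for ADE2, and 12888 bp in W303 and 12449 bp in S288C for LEU2. S288C words of the minus strand were closer than this to HIS3, at 206 bp, and to ADE2, at 5450 bp. The W303 nuclear chromosomes held 277 features of this class, and S288C held 280 matches on the plus strand and 274 on the minus strand. The sources used here do not give the strand the authors searched. Of 352 annotated S288C origins, 49 held a word on the plus strand and 99 on either strand. ARS1516, an origin 218 bp from ADE2 in S288C, held none on either strand, and no W303 feature marked the gap between ADE2 and AFI1. A missing word says only that these letters are not in the window. A missing W303 feature says only that no match was recorded there, as the minus-strand word inside ARS1 of S288C had no W303 feature beside TRP1.

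The leucine tRNA gene upstream of LEU2 was the only tRNA feature beside a member. Its exons lay at 90950 to 90988 and 91019 to 91063 on chromosome 3 of W303, a span of 114 bp in W303 and 114 bp in S288C. Farther upstream, a Ty retrotransposon feature of 4041 bp ended 908 bp from LEU2 in W303, against a Ty element of 5959 bp that ended 554 bp from LEU2 in S288C. The lengths and the 2 distances are not comparable, since the W303 feature covers the gag-pol part of an element. The gap from LEU2 to YCL021W-A, which lies beyond the Ty feature, was 7326 bp in both strains. Chromosome 15 had no tRNA feature in W303, so ADE2 and HIS3 had none on their chromosome, whereas in S288C an aspartate tRNA gene lay 5766 bp from ADE2 and the initiator methionine tRNA gene 11673 bp from HIS3. According to the paper, far fewer tRNA genes were identified in W303 than the S288C reference holds. A missing tRNA feature therefore need not be a missing gene.

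Of 42 genes in lists for adenine, tryptophan, leucine, histidine and pyrimidine synthesis and for basic amino acid permeases, 4 were noted as different in size, and 3 of these were ADE2, TRP1 and LEU2. Of the 36 that are not members, 1 had the note, beside 524 of 5630 (9.31%) over all gene features, and nothing is read from so few genes. It was URA2, whose product catalyses the first steps of pyrimidine synthesis, at chromosome 10 positions 166872 to 173516 of W303, minus strand. Its length by coordinates was 6645 bp in both strains, so the note and the coordinates disagree. The adenine list had 1 of 11 genes noted, the tryptophan list 1 of 5, the leucine list 1 of 7, the histidine list 0 of 7, the pyrimidine list 1 of 9 and the permeases CAN1, LYP1 and ALP1 0 of 3. None of LYS2, MET17 and ARG4, further marker genes, had the note.

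Of 4 other genes known for alleles of W303, 3 were shortened, beside 5.32% of all ORFs matched by systematic name. Among genes with 1 coding part in S288C, as these 3 are, the share was 2.35%. These 3 genes kept a larger share than TRP1 and LEU2 but had more bases missing, 1659 in SSD1, 1293 in YBP1 and 1827 in BUD4, against 837 in LEU2. SSD1, an mRNA-binding protein, was 2094 bp in W303 and 3753 bp in S288C. YBP1, which binds the stress factor Yap1, was 732 bp in W303 and 2025 bp in S288C. BUD4, of bud site selection, was 2517 bp in W303 and 4344 bp in S288C. These 3 kept 55.8%, 36.1% and 57.9% of the S288C length, against 71.0% for ADE2. RAD5, a DNA repair ATPase, had 3510 bp in both strains. This list was known for its alleles in W303 and is not independent evidence of a direction.

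Among the 76 single-exon ORFs that were shorter in W303, with a systematic name used once and on the same chromosome as in S288C, the median share of S288C length kept was 93.5%. A smaller share than TRP1 was kept by 6, a smaller share than LEU2 by 8 and a smaller share than ADE2 by 24. More bases were missing than from LEU2 in 13, than from TRP1 in 20 and than from ADE2 in 21. By a gap that moved at most 10 bp, 5 ORFs kept the stop end only, ADE2 and TRP1 with RDH54, GZF3 and TRM2, and 11 kept the start end only, LEU2 among them. Most of the 76 were in neither class: 7 kept both gaps, 26 fell under other and 27 had no call. All 5 that kept the stop end only had an S288C ATG at the W303 start. This was largely set in advance, since an ORF is called from an ATG and these 5 were picked by their kept stop end. Of the 11 that kept the start end only, LEU2, YBP1 and HOM3 had an S288C stop triplet 1 base short of the W303 length. In 6 it was 1 base beyond, and SSD1 and AFI1 had neither. These classes were set after the marker values had been seen.

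**Figure D4:**
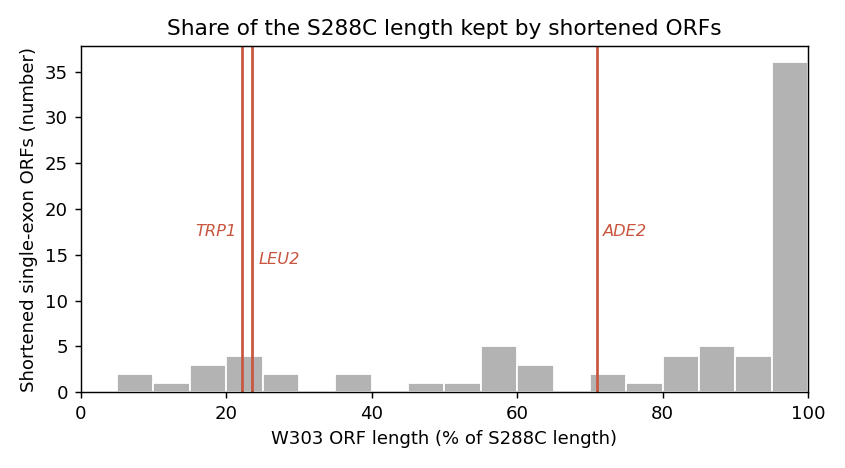
Number of single-exon ORFs with a name used once that were shorter in W303 than in S288C (76 in all) by the share of the S288C length kept in percent, in steps of 5, with red lines at 3 markers. TRP1 at 22.2% and LEU2 at 23.6% stand in the thin left part and ADE2 at 71.0% nearer to the median of 93.5%.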

How the data were processed

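The deposited file used here is the annotation the authors made of the W303 genome, whose values, per the file headers, are start and end positions in bases of 6285 features and size notes. Per the same headers, the authors ran the Yeast Genome Annotation Pipeline on assembly ASM216351v1, named ORFs from S288C R64-2-1 or by BLAST, and compared ORF sizes with S288C. The sources used here do not give the pipeline version. No library enters the file, so that no replicate, depth or error applies and no test was run.

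W303 genes were matched to the RefSeq S288C R64 reference by systematic name (5584 ORFs). Each build was read in its own coordinates and only distances were compared. All sequences are from S288C R64. ORFs with more than 1 coding part in S288C were left out of the classes of kept ends. Gaps and their changes were checked on simulated loci that held a planted truncation and no other difference. Named genes are the 6 members, their neighbours, the centromeres of their chromosomes and list members noted as different in size. RAD5, HOM3, the other ORFs named by kept end and the flanking ORFs of equal length were added after their values were seen. The members and lists were chosen with earlier results of these data known. Alternatives changed the reading of coordinates, the neighbours, the matching and the direction of counting. Analyses used python 3.11.15, numpy 2.4.6 and matplotlib 3.10.9.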

Additional observations from a re-analysis of the deposited data

How the results depend on the processing

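Of 33 alternative values, 18 were equal to the reported one, 2 were counts lower by 1, 13 moved and 0 reversed. Many of the equal values were set in advance and do not speak for stability. For most gaps the nearest neighbour was already an ORF. The nearest ORFs beside TRP1 and LEU2 already had equal lengths in both strains. A half-open reading of both builds cannot change which ORF is shorter. With ORFs as the only neighbours, the 5′ gap of LEU2 was 7326 bp, because the tRNA gene then no longer counts. With the second nearest ORF upstream as the flank, the 5′ gap of ADE2 was wider by 499 bp, as it also was with the nearest ORF of equal length. For TRP1 the widening was 525 bp with the nearest ORF of equal length and 1076 bp with the second nearest ORF upstream. That second nearest ORF, MAF1, a repressor of RNA polymerase III, was 717 bp in W303, against a span of 1268 bp in S288C that includes an intron. The widening of 1076 bp thus mixes this intron with a difference at MAF1 and does not describe TRP1. Of the 3 shortened markers, 2 had an S288C ATG at their length before the stop, 0 had an in-frame stop at their length after the start, and 1 (LEU2) had a stop triplet there when read 1 base earlier, a reading added after seeing the data. A half-open reading of the coordinates lowered each marker length by 1 bp. ORFs with 1 coding part in S288C were shorter in 2.35%, against 5.32% over all matched ORFs, a split made after seeing the data. List genes differing in size were 7 by the note and 6 by coordinates.

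No paired analysis was possible because the annotation carries no replicates. The file gives 1 assembly of 1 isolate, and a difference in sequence, in the assembly or in the annotation pipeline cannot be told apart by position alone.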

Other observations

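Values outside the marker pathways stood beside those of the shortened markers. HOM3, the aspartate kinase of threonine and methionine synthesis, was annotated at 741 bp in W303 and 1584 bp in S288C, 46.8% of the S288C length, with its start end kept as in LEU2. It is an amino acid synthesis gene that is not among the markers named in the strain list, and was noticed after its values were seen.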
